A study of Quercus x morisii and Quercus suber and Quercus ilex with 16 samples.

Results

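Hybrid oak barks were set against the barks of both parent species, apart from the type of bark. The hybrid group held 8 of the 16 RNA-seq libraries and the parent group the other 8. Cork-like libraries (n = 4) came from 1 natural hybrid tree, a backcross to cork oak, sampled on each of 4 sides of its trunk. Rhytidome-like libraries (n = 4) came from 4 trees, natural F1 hybrids of holm oak and cork oak, and the labels name both kinds of hybrid Quercus x morisii. Cork libraries (n = 4) came from 4 cork oaks (Quercus suber) that had never been stripped, and rhytidome libraries (n = 4) from 4 holm oaks (Quercus ilex). All were adult trees grown in a mixed natural forest, and RNA was taken from the inner face of the outer bark of the trunk while the bark could be detached. Apart from the cork-like tree, every bark was taken on the south side. For each of 25617 loci whose rlog averaged at least 1, of 47292 in the table, the mean of the cork-like and rhytidome-like means was compared with the mean of the cork and rhytidome means. The rlog is a regularized log2 of the read count, scaled for depth, so a difference of 1 stands for a ratio of 2 in expression, and for loci with few reads the difference is drawn toward 0.

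The outer bark of trees is built by the phellogen, a cambium that gives off phellem cells outward. Phellem cells deposit suberin, a polyester of long-chain fatty acids, glycerol and ferulate in their walls, and then die. In cork oak a single phellogen stays active and builds thick cork, whereas in holm oak new periderms form ever deeper and enclose dead phloem, which gives the thin-layered bark named rhytidome. Genes of an F1 hybrid are read from 1 allele of each parent, so that a locus whose alleles act independently is expected between the parents. On a log scale that expected level lies above the midpoint of the parents, more so where the parents differ widely.

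The hybrids are 5 trees and the parents 8. As the cork-like libraries share a tree, their spread is a spread within a tree, and counts of DEGs are also given with the cork-like tree as 1 sample, the mean of its libraries (13 samples). Median rlog over the loci tested was 7.51 to 7.62 in cork-like, 7.27 to 7.37 in rhytidome-like, 7.45 to 7.49 in cork and 7.67 to 7.73 in rhytidome libraries. All reads were mapped to the cork oak genome, and the part that this played in the levels of holm oak and hybrid alleles was not tested. The study's library table lists a lower RNA integrity for each cork-like than for each cork library, with overlap between rhytidome-like and rhytidome bark, and the lowest share of mapped reads for rhytidome 94. The part of RNA integrity was not tested. The suberin genes that mark phellem were present in every bark, at a summed level (log2) of 18.35 to 18.71 in cork-like, 12.70 to 14.36 in rhytidome-like, 19.33 to 19.91 in cork and 16.12 to 16.90 in rhytidome libraries. By the test described below all 13 loci of this list were lower in hybrids, where 7.71% of all loci tested were, and 7 of the 13 with the cork-like tree as 1 sample. The list comes from the study's table of development and cell wall genes, which was drawn from DEGs of these libraries. Its count is therefore no independent evidence. One of the 13, FAR4 LOC112008996, also lost its call when any of 12 single libraries was left out. For the summed level, within either type of bark the groups did not overlap. In bulk samples fewer phellem cells and less RNA per cell cannot be told apart. The study describes thicker and closer periderms in rhytidome-like hybrids than in holm oak, and their part in these levels was not tested.

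Between hybrid and parent barks 3229 loci were differentially expressed (DEGs, limma adjusted p under 0.01 and an absolute difference over 1), or 12.6% of the loci tested. Of these, 1253 (4.89%) were higher and 1976 (7.71%) lower in hybrids, so that 38.8% of the DEGs were higher. With each library centred on its median, 49.9% of the DEGs were higher, and with quantile normalization 43.2%. The size of the split therefore varied with how the libraries were scaled. The library medians gave a hybrid minus parent difference of -0.125, whereas the median difference over the loci was 0.01. Counted with the cork-like tree as 1 sample, 1224 loci (4.78%) were DEGs, 457 higher (1.78%) and 767 lower (2.99%), and every one of them was among the 3229. On a linear scale, additive alleles of an F1 hybrid lie at the midpoint of the parents. Against that midpoint 2604 of the 3229 DEGs (80.6%) kept a difference over 1 in the same direction, and 36 turned sign. Additive alleles of a backcross to cork oak lie nearer to cork, which was not allowed for on the linear scale. On the log scale, 3079 DEGs (95.4%) kept a difference over 1 against parents weighted by expected alleles.

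A difference from the mean of the parents need not lie outside the parents. For 1628 DEGs (50.4%) both hybrid means lay beyond both parent means, 583 higher and 1045 lower. Only the rhytidome-like mean lay beyond both parents for 1068 DEGs (33.1%), 353 higher and 715 lower. Only the cork-like mean did so for 376 DEGs (11.6%), 219 higher and 157 lower. Both hybrid means stayed within the parental range for 157 DEGs (4.86%). Of the last set 98 were higher and 59 lower in hybrids. Each of the 8 hybrid libraries lay beyond each of the 8 parent libraries at 511 loci (1.99% of those tested), 255 above (0.995%) and 256 below (0.999%). Of these loci 321 were also DEGs (1.25% of those tested), 116 higher and 205 lower, and 320 of them kept a difference over 1 on the linear scale.

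The contrast is the mean of cork-like minus cork and rhytidome-like minus rhytidome, which share no library. Cork-like bark differed from cork at 3548 loci (13.9%) and rhytidome-like bark from rhytidome at 4524 (17.7%). Both lists held 992 loci, 28% of the cork-like list and 21.9% of the rhytidome-like list. At 598 of these the hybrids went the same way, 184 higher and 414 lower, and at 394 they went opposite ways. Over the 25617 loci the correlation of the differences was -0.02 (Pearson r), and 49% had the same sign. Loci are not independent replicates, and the libraries share their scaling. With the cork-like tree as 1 sample, 269 loci (1.05%) were called between cork-like bark and cork and 3546 between rhytidome-like bark and rhytidome, and both lists held 68 loci, of which 34 went the same way.

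**Figure D1:**
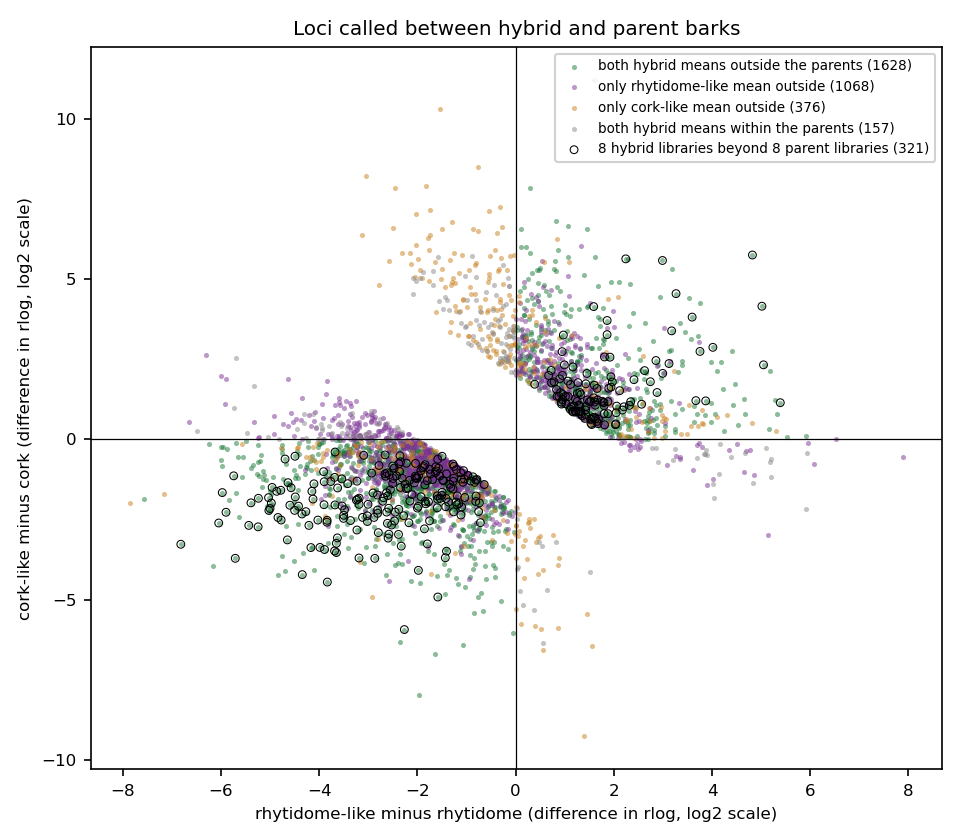
Each point is 1 of the 3229 DEGs between hybrid and parent barks. The x axis gives rhytidome-like minus rhytidome and the y axis cork-like minus cork, both as differences in rlog on the log2 scale. Colours give how the hybrid means lie against the parent means, with the number of loci, and open circles mark the 321 DEGs at which the 8 hybrid libraries lie beyond the 8 parent libraries. Points far from the origin along 1 axis and near 0 on the other have most of their difference in 1 of the hybrid barks, and the diagonal edges are set by the threshold of 1 on the mean of the axes.

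Cork-like minus cork and rhytidome-like minus rhytidome had the same sign at 994 of the 1253 DEGs higher in hybrids (79.3%) and at 1748 of the 1976 lower (88.5%), which the threshold on their mean favours. Among the 3229, rhytidome-like bark alone passed the test against its parent in the same direction at 1413 loci (43.8%), 353 higher and 1060 lower. Cork-like bark alone did so at 956 loci (29.6%), 608 higher and 348 lower. Both passed at 598 loci (18.5%) and neither at 225 (6.97%), and at the other 37 they passed in opposite directions. The difference between the hybrid effects was itself past the threshold at 4794 of all loci (18.7%) and at 1198 of the DEGs (37.1%). It passed at 820 loci (3.2%) with the cork-like tree as 1 sample.

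Names were at hand for 543 of the loci tested, of which 145 (26.7%) were DEGs, 51 higher and 94 lower, and 61 with the cork-like tree as 1 sample, 21 higher and 40 lower. Many of these come from the study's table of 82 development and cell wall genes, which was drawn from DEGs of these same libraries. Outside that table and the genes of its RT-qPCR, 98 of 455 named loci (21.5%) were DEGs, 41 higher and 57 lower, and 36 with the cork-like tree as 1 sample. Names are Arabidopsis matches, and their roles are those known in Arabidopsis unless another species is named. Values below are rlog, ordered by side of the trunk for cork-like bark (north, south, east, west), trees 21, 14, 18 and 20 for rhytidome-like bark, 87, 89, 90 and 91 for cork and 33, 67, 68 and 94 for rhytidome.

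Among named loci whose rlog averaged at least 5, 10 of 118 DEGs had no overlap between the 8 hybrid and the 8 parent libraries. Over all loci at that level, named or not, 248 of 2352 DEGs had none, so the named loci were not richer in them. Of the 10 named loci, 5 were higher in hybrids. SNF1-RPK (LOC111986784), a beta subunit of the energy-sensing kinase SnRK1, had 13.09, 13.08, 12.73 and 12.72 in cork-like and 13.92, 13.86, 13.84 and 13.85 in rhytidome-like bark, against 11.83, 11.64, 11.63 and 11.86 in cork and 11.16, 11.48, 11.75 and 11.71 in rhytidome. It was higher by 1.76 in hybrids (SE 0.10, limma adjusted p = 2.66e-08), and rhytidome-like libraries lay above cork-like ones. The difference from the parent was 2.34 in the rhytidome type and 1.17 in the cork type (limma adjusted p = 0.00035 for the difference between the types, 0.0133 with the cork-like tree as 1 sample). FAD2 (fatty acid desaturase 2, LOC112015494), which desaturates oleate in the endoplasmic reticulum, had 12.36, 12.24, 12.11 and 12.50 in cork-like and 12.77, 12.57, 13.92 and 13.49 in rhytidome-like bark, against 11.51, 10.99, 11.002 and 11.09 in cork and 11.67, 11.40, 11.36 and 11.89 in rhytidome. The hybrid libraries began just above the highest rhytidome library, and the difference was 1.38 (SE 0.17, limma adjusted p = 2.20e-05).

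Another enzyme of lipid assembly, GPAT9 (glycerol-3-phosphate acyltransferase 9, LOC112031054), acylates glycerol-3-phosphate for membrane and storage lipids and is not the suberin enzyme GPAT5. It had 11.83, 11.93, 11.74 and 11.61 in cork-like and 12.67, 12.86, 12.59 and 13.18 in rhytidome-like bark, against 11.06, 11.21, 11.06 and 11.20 in cork and 11.34, 11.57, 11.21 and 11.55 in rhytidome. The groups did not overlap, but the difference of 1.03 (limma adjusted p = 1.60e-06) lay at the threshold and came to 0.99 without rhytidome 68 and 0.97 without rhytidome-like 20. Pigment defective 320 (LOC111997734), which in Arabidopsis takes part in moving lipids from the endoplasmic reticulum to plastids, had 10.16, 10.05, 9.97 and 10.01 in cork-like and 10.39, 11.19, 10.76 and 11.46 in rhytidome-like bark, against 9.29, 9.27, 9.44 and 9.52 in cork and 9.40, 9.31, 9.75 and 9.01 in rhytidome. It was higher by 1.12 in hybrids (limma adjusted p = 2.84e-05). SVP (LOC111992586), a MADS-box factor that represses flowering and acts in the differentiation of cambial derivatives, had 8.83, 8.81, 8.34 and 8.45 in cork-like and 9.18, 9.34, 9.17 and 9.87 in rhytidome-like bark, against 7.71, 7.77, 7.79 and 7.50 in cork and 8.01, 7.63, 8.09 and 8.13 in rhytidome. The parents overlapped with each other at this locus, and the hybrids stood above them by 1.17 (SE 0.14, limma adjusted p = 1.36e-05).

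The other 5 loci without overlap were lower in hybrids. The largest difference was that of an ethylene-forming enzyme (LOC112025436), the ACC oxidase that makes ethylene in its last step of synthesis. It had 5.13, 6.19, 5.92 and 5.24 in cork-like and 6.99, 5.92, 4.67 and 5.53 in rhytidome-like bark, against 7.94, 8.89, 8.63 and 7.21 in cork and 7.79, 9.46, 7.101 and 8.62 in rhytidome. The lowest parent library stood just above the highest hybrid library, and the difference was -2.51 (SE 0.39, limma adjusted p = 0.000153). A NAC factor (LOC112035443) matched to ATAF1, which responds to drought and wounding, had 8.50, 8.71, 9.38 and 8.67 in cork-like and 8.38, 7.29, 7.53 and 8.78 in rhytidome-like bark, against 9.77, 9.85, 9.39 and 9.83 in cork and 10.19, 10.09, 10.76 and 10.84 in rhytidome. Cork 90 and the east side of the cork-like tree nearly met, and the difference was -1.68 (SE 0.21, limma adjusted p = 2.82e-05).

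MYB102 (LOC112004686), a MYB factor tied to suberin accumulation, was the only 1 of the suberin loci without overlap. Its values were 10.80, 10.29, 9.96 and 10.60 in cork-like and 8.92, 8.27, 8.68 and 8.87 in rhytidome-like bark, against 11.60, 11.86, 11.70 and 11.38 in cork and 11.52, 10.88, 10.93 and 11.41 in rhytidome. The difference was -1.86 (SE 0.15, limma adjusted p = 4.42e-07), and cork-like bark lay between rhytidome-like bark and both parents. A protein kinase (LOC111986765) had 9.03, 8.93, 9.05 and 8.94 in cork-like and 7.97, 8.92, 7.86 and 8.32 in rhytidome-like bark, against 10.07, 9.97, 10.23 and 10.01 in cork and 10.38, 9.82, 10.18 and 9.62 in rhytidome. A phosphotyrosine protein phosphatase (LOC112025447) had 8.34, 8.70, 8.46 and 8.61 in cork-like and 9.02, 9.29, 9.21 and 9.32 in rhytidome-like bark, against 9.54, 10.40, 10.41 and 9.39 in cork and 10.78, 10.85, 10.27 and 10.32 in rhytidome. At both loci the parents overlapped with each other and the hybrids were lower, with differences of -1.41 and -1.38 (limma adjusted p = 5.95e-06 and 1.36e-05). All 10 loci kept their call with the cork-like tree as 1 sample (limma adjusted p from 3.46e-05 to 0.00995).

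**Figure D2:**
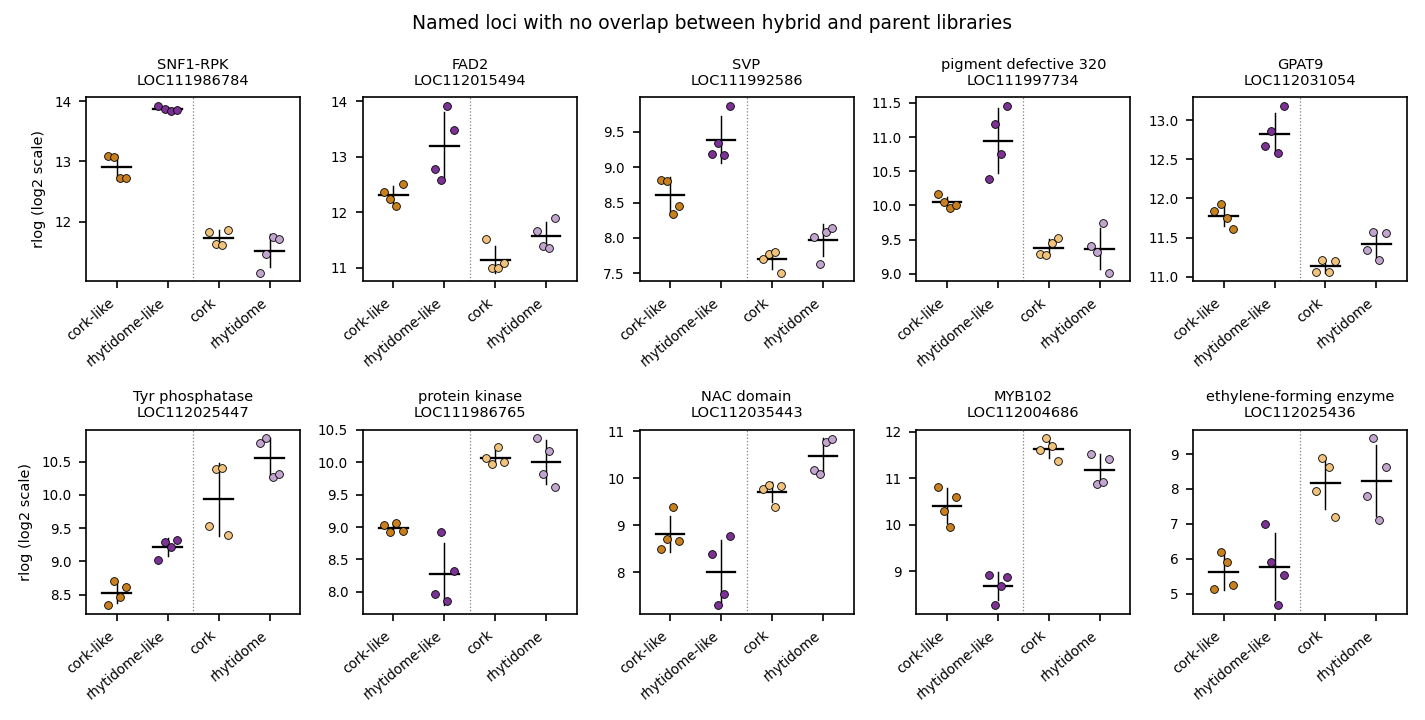
The rlog (log2 scale) of each library is shown for the 10 named loci at which hybrid libraries, left of the dotted line, do not overlap with parent libraries, right of it. Points are libraries (4 per bark), horizontal bars the mean and vertical bars the SD of the 4 libraries, and the 4 cork-like points are sides of 1 trunk. In the upper panels the hybrids lie above both parents, led by rhytidome-like bark, and in the lower panels they lie below.

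A further 4 named DEGs without overlap had a mean rlog under 5 and were chosen after their values were seen. These were an ankyrin repeat protein (LOC112032093, 3.28) and a glycosyltransferase UGT74E2 (LOC112038873, 1.75), both higher in hybrids, and an AP2 domain factor (LOC112005026, -2.45) and a second UGT74E2 (LOC112039388, -2.45), both lower. The UGT74E2 loci thus went in opposite directions. Near-identical copies of a gene can exchange or lose reads, so single members of such families are uncertain.

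Larger differences were found at loci without a name. Those given here had an rlog that averaged at least 5, no overlap between hybrid and parent libraries, and a call that held with the cork-like tree as 1 sample. LOC112022831 had 11.13, 10.50, 10.56 and 11.18 in cork-like and 7.98, 8.81, 7.85 and 8.03 in rhytidome-like bark, against 2.91, 6.61, 7.33 and 3.53 in cork and 2.00, 3.32, 3.90 and 4.16 in rhytidome, a difference of 5.28 (limma adjusted p = 5.71e-06). LOC111988990 had 9.07, 8.57, 8.41 and 8.64 in cork-like and 4.76, 4.94, 4.65 and 5.77 in rhytidome-like bark, against 12.09, 12.90, 12.60 and 11.95 in cork and 10.89, 11.12, 10.19 and 10.76 in rhytidome, a difference of -4.71 (limma adjusted p = 1.87e-09). Neither locus overlapped between hybrids and parents. The next loci within these limits were LOC112009335, higher by 3.70, and LOC112006392, with a difference of -4.33.

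Many suberin genes were lower in hybrid barks. Of the 39 suberin and lignin loci in the study's table, 25 were DEGs (64.1%) and all 25 were lower, where 7.71% of all loci were. The median difference over the 39 loci was -1.36, against 0.01 over all loci, and 38 of the 39 differences were negative. The table was drawn from DEGs of these libraries, so it is no independent evidence of a direction. With the cork-like tree as 1 sample, 12 of the 39 were DEGs, all lower, and 13 of the 25 kept a difference over 1 on the linear scale.

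The differences were larger in the rhytidome type. Over the 39 loci the median was -2.31 for rhytidome-like minus rhytidome and -0.47 for cork-like minus cork. Of the 25 DEGs, 24 were called lower in rhytidome-like bark than in rhytidome and 9 in cork-like bark than in cork. Rhytidome-like bark had the lowest of the 4 means at 23 loci, and cork the highest at 22. Both hybrid means were below both parents at 3 of the 25 loci and only the rhytidome-like mean at 20. Leaving out rhytidome-like 21, the lowest rhytidome-like library at each suberin enzyme whose libraries are given below, left 20 of the 39 loci as DEGs. The difference between the hybrid effects passed the threshold at 22 of the 39 loci, but at 2 with the cork-like tree as 1 sample.

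Among the enzymes, KCS2 (LOC112030764), which elongates fatty acids to very long chains, had 13.83, 13.74, 13.67 and 13.94 in cork-like and 8.22, 9.40, 9.51 and 10.39 in rhytidome-like bark, against 15.37, 15.77, 15.77 and 15.40 in cork and 12.88, 12.20, 12.14 and 12.49 in rhytidome. CYP86B1 (LOC112009780), the omega-hydroxylase of those chains, had 15.07, 14.92, 15.01 and 15.10 in cork-like and 9.10, 10.77, 10.62 and 11.50 in rhytidome-like bark, against 16.47, 17.06, 17.02 and 16.54 in cork and 13.61, 13.13, 12.90 and 13.56 in rhytidome. Each hybrid bark was below the parent of its own bark type in every library at these loci, with differences of -2.42 and -2.28 (limma adjusted p = 1.78e-06 and 8.87e-06). FAR4 (LOC112006016), which reduces fatty acyl chains to the primary alcohols of suberin, had 10.01, 10.18, 10.03 and 10.12 in cork-like and 4.70, 5.76, 6.48 and 6.28 in rhytidome-like bark, against 11.95, 11.93, 12.88 and 11.59 in cork and 8.61, 9.09, 8.64 and 8.81 in rhytidome. It showed the same order of barks, and the difference was -2.49 (limma adjusted p = 1.77e-06).

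ASFT/FHT transfers ferulate to suberin monomers and was measured at 2 loci. LOC112007140 had 16.06, 15.86, 15.56 and 15.96 in cork-like and 10.30, 11.04, 11.17 and 11.56 in rhytidome-like bark, against 16.53, 17.32, 17.07 and 16.84 in cork and 14.36, 14.02, 13.53 and 13.92 in rhytidome. LOC112001733 had 16.01, 15.95, 15.51 and 15.86 in cork-like and 10.01, 11.38, 11.49 and 11.27 in rhytidome-like bark, against 15.71, 16.26, 16.21 and 15.75 in cork and 14.84, 14.12, 14.10 and 14.22 in rhytidome. At LOC112001733 cork-like bark and cork overlapped, so that its hybrid minus parent difference of -1.72 came from rhytidome-like bark, whereas at LOC112007140, with -2.01, both hybrids were below their parents (limma adjusted p = 1.28e-05 and 9.57e-07). GPAT5 (LOC112028279), which esterifies suberin acids to glycerol, had 15.81, 15.79, 15.34 and 15.94 in cork-like and 8.81, 10.92, 10.62 and 11.06 in rhytidome-like bark, against 16.26, 16.46, 16.59 and 16.14 in cork and 13.24, 12.67, 12.49 and 12.54 in rhytidome, a difference of -1.51 (limma adjusted p = 0.000345, and 0.0176 with the cork-like tree as 1 sample). The GDSL esterases that polymerize suberin, GELP38, GELP51 and GELP96, were lower in hybrids at all 6 of their loci, with differences from -2.71 to -1.39.

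Transport and assembly followed in part. The monomer exporter ABCG2 (LOC111999232) had 9.16, 9.22, 9.09 and 9.49 in cork-like and 3.24, 5.07, 5.08 and 5.08 in rhytidome-like bark, against 9.90, 10.31, 10.38 and 10.38 in cork and 7.32, 6.81, 6.86 and 6.26 in rhytidome. Every hybrid library was below the parent of its own bark type, with a difference of -1.60 (limma adjusted p = 0.000179, and 0.0143 with the cork-like tree as 1 sample). WBC11/ABCG11 (LOC112029276), an exporter of wax and suberin lipids, gave -0.60 and did not pass (limma adjusted p = 0.134). The peroxidase PER72 (LOC112006365), which acts in lignin polymerization, was the exception in pattern, with means of 9.32 in cork-like and 9.44 in rhytidome-like bark, against 12.17 in cork and 9.37 in rhytidome. There the cork mean alone stood high, and no PER3 or PER39 locus passed the test. NAC058/StNAC103 (LOC112037487), a repressor of suberin in potato, was also lower in hybrids (-1.32, limma adjusted p = 0.000454). It kept neither its call with the cork-like tree as 1 sample nor a difference over 1 on the linear scale.

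**Figure D3:**
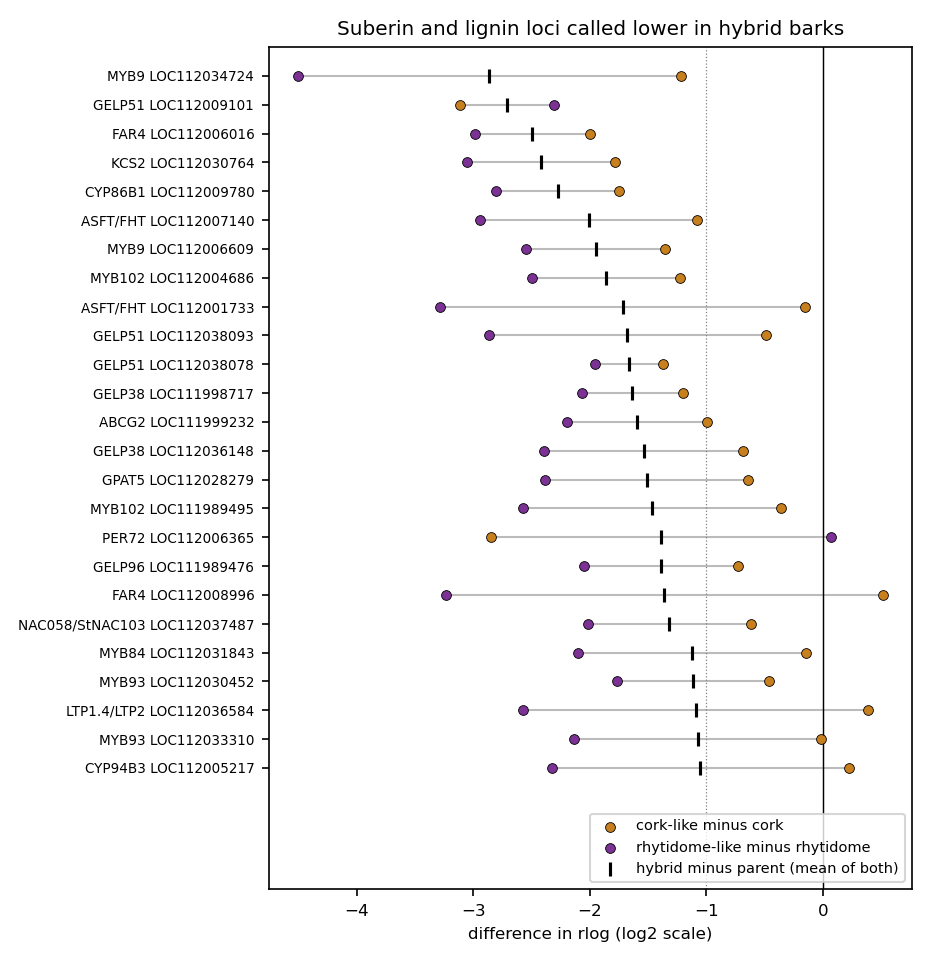
The 25 suberin and lignin loci called lower in hybrid barks are shown in order of their hybrid minus parent difference. The x axis gives differences in rlog (log2 scale), orange points cork-like minus cork, purple points rhytidome-like minus rhytidome, black ticks the mean of both, and the dotted line the threshold of -1. Purple points lie left of the threshold at every locus but PER72, and the orange points spread from below -3 to above 0.

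MYB factors, which switch suberin and phenylpropanoid genes, gave 11 DEGs among 21 loci (52.4%, against 12.6% of all loci tested). Of these 4 were higher and 7 lower in hybrids, and 6 were DEGs with the cork-like tree as 1 sample. All 21 loci stand in the study's table, which was drawn from DEGs of these libraries. Neither the share nor the direction is therefore independent evidence. The 7 lower ones all belong to MYB9, MYB102, MYB93 and MYB84, the suberin branch, and at all 7 rhytidome-like bark had the lowest mean. MYB9 (LOC112034724) had 10.80, 10.65, 9.53 and 10.50 in cork-like and 5.14, 6.39, 6.06 and 6.59 in rhytidome-like bark, against 11.27, 12.12, 12.19 and 10.79 in cork and 10.93, 10.79, 9.96 and 10.50 in rhytidome. The parents overlapped with each other, rhytidome-like bark was below every other library, and the difference was -2.86 (SE 0.27, limma adjusted p = 1.98e-06). The second MYB9 locus (LOC112006609) gave -1.95 and a second MYB102 locus (LOC111989495) -1.47 (limma adjusted p = 1.22e-06 and 6.45e-05).

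The 4 higher MYB loci were MYB4, a repressor of phenylpropanoid synthesis, and MYB5, known from seed coat epidermis, at 2 loci each. Of these 4, 1 kept its call with the cork-like tree as 1 sample. The second MYB5 locus (LOC112035506) lost its call when any of 12 single libraries was left out. MYB5 (LOC112003598) was higher by 1.19 (limma adjusted p = 0.000439), with means of 9.26 in cork-like and 13.19 in rhytidome-like bark, against 7.89 in cork and 12.17 in rhytidome. MYB4 (LOC112023509) had means of 1.30 in cork-like and 7.28 in rhytidome-like bark, against 1.65 in cork and 2.59 in rhytidome, so that it was high in rhytidome-like bark alone (limma adjusted p = 0.0021, and 0.0445 with the cork-like tree as 1 sample). The 3 MYB36 loci, whose product directs Casparian strips and suberin in roots, gave -0.57, -0.89 and -0.91 and did not reach a difference of 1.

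The remaining 43 loci of the study's table, on development and the cell wall, gave 18 DEGs (41.9%, against 12.6% of all loci tested), 8 higher and 10 lower, with a median of -0.44. With the cork-like tree as 1 sample there were 9, 3 higher and 6 lower. As the table was drawn from DEGs of these libraries, a share above that of all loci is no independent evidence. The largest difference was that of RRTF1/ERF109 (LOC112008191), an ethylene response factor induced by oxidative stress and wounding and placed by the study under cell death. It had 4.88, 4.81, 4.90 and 4.96 in cork-like and 11.48, 9.69, 10.57 and 10.55 in rhytidome-like bark, against 9.36, 9.22, 9.59 and 11.04 in cork and 12.27, 12.64, 14.76 and 14.32 in rhytidome. The difference was -3.91 (SE 0.37, limma adjusted p = 2.20e-06), with cork-like bark far under every other library and rhytidome-like bark overlapping with cork. LBD41 (LOC112037478), a LOB domain factor that responds to low oxygen, had 11.01, 11.08, 12.79 and 11.01 in cork-like and 9.49, 9.19, 9.42 and 9.66 in rhytidome-like bark, against 13.12, 13.35, 13.48 and 12.99 in cork and 12.86, 11.34, 11.79 and 12.18 in rhytidome. The east side of the cork-like tree stood apart from its other sides and reached the parental range, and the difference was -2.18 (limma adjusted p = 1.45e-05).

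Of 5 wall loci tested by name (expansins, xyloglucan endotransglucosylases and extensins), 4 were DEGs, all lower in hybrids, where 7.71% of all loci were. With the cork-like tree as 1 sample, 3 were DEGs. The median over the 5 loci was -1.33. The 4 DEGs stand in the study's table, which was drawn from DEGs of these libraries, so their count is no independent evidence. The locus outside that table, LOC112023845, was not a DEG. EXPA4 (LOC112017318), an expansin, had 13.05, 12.94, 12.16 and 12.91 in cork-like and 11.15, 10.86, 10.34 and 10.88 in rhytidome-like bark, against 13.34, 13.53, 13.74 and 13.99 in cork and 14.25, 13.48, 13.03 and 13.10 in rhytidome. EXT3 (LOC112039578), an extensin of the cell plate, had 11.95, 11.93, 13.13 and 13.14 in cork-like and 9.83, 10.68, 8.91 and 10.32 in rhytidome-like bark, against 15.05, 14.81, 14.73 and 15.05 in cork and 11.52, 11.16, 11.76 and 10.63 in rhytidome. EXPA4 was high in both parents and lowest in rhytidome-like bark, whereas EXT3 was highest in cork, with differences of -1.77 and -1.85 (limma adjusted p = 5.78e-06 and 6.80e-05). RGP2 (LOC112004750), which supplies arabinose units for wall polysaccharides, had 13.99, 13.50, 13.64 and 13.79 in cork-like and 11.73, 11.34, 11.52 and 11.78 in rhytidome-like bark, against 13.83, 14.42, 14.14 and 14.37 in cork and 14.77, 14.18, 14.14 and 14.04 in rhytidome. Rhytidome-like libraries were the lowest, the parents overlapped with each other, and the difference was -1.57 (limma adjusted p = 4.97e-07).

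The 8 higher loci of this group included SVP, the MYB4 and MYB5 loci, BAM3 and FRIGIDA-like genes, whose Arabidopsis relatives delay flowering. FRIGIDA-like LOC112034633 had 13.40, 13.82, 13.92 and 13.77 in cork-like and 13.89, 15.68, 13.73 and 14.96 in rhytidome-like bark, against 12.44, 10.99, 12.69 and 12.82 in cork and 12.50, 13.36, 13.74 and 13.29 in rhytidome. It overlapped with rhytidome, and its difference of 1.41 (limma adjusted p = 0.00222) gave an adjusted p of 0.0535 with the cork-like tree as 1 sample, while LOC111986594 (1.28) kept its call (0.00817). BAM3 (LOC112030870), a receptor kinase of early phloem and the only phloem marker with a name here, had 6.02, 8.57, 9.45 and 8.01 in cork-like and 11.69, 12.95, 12.95 and 12.18 in rhytidome-like bark, against 4.31, 3.90, 5.32 and 6.39 in cork and 11.15, 11.58, 12.20 and 10.90 in rhytidome. Each hybrid was above the parent of its own bark type on average, by 2.01 (limma adjusted p = 0.00274, and 0.0134 with the cork-like tree as 1 sample), and the part of phloem cells in the bark samples was not tested. Regulators of the cambium and of meristems, WOX4, HB-8, STM, KNAT1, AIL5 and AIL6, did not reach a difference of 1, with values from -0.91 for WOX4 to 0.80 for KNAT1.

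Of the 6 genes that the study chose for RT-qPCR, 5 were DEGs here, where 12.6% of all loci tested were. DC7.1-like (LOC112034238) had 16.77, 16.52, 16.02 and 16.16 in cork-like and 10.01, 11.74, 10.97 and 12.23 in rhytidome-like bark, against 15.87, 15.50, 15.35 and 16.29 in cork and 8.20, 7.51, 8.45 and 8.50 in rhytidome. It was the highest in cork-like bark and the lowest in rhytidome, and its difference of 1.84 (limma adjusted p = 9.72e-05) was the mean of 0.62 in the cork type and 3.07 in the rhytidome type and shrank to 0.65 on the linear scale. ZAT10-like (LOC112003415), a zinc finger factor of abiotic stress, had 8.38, 8.34, 8.39 and 8.12 in cork-like and 10.22, 8.57, 7.65 and 8.66 in rhytidome-like bark, against 9.32, 9.80, 9.54 and 9.42 in cork and 11.03, 11.17, 12.51 and 12.44 in rhytidome. Both hybrid means lay under both parents, with a difference of -2.11 (limma adjusted p = 8.84e-05), with rhytidome-like 21 inside the range of the parents. The oxidase RBOHD (LOC112002845) gave 1.34 and beta-tubulin (LOC112004091), the reference gene of the RT-qPCR, -0.43, and neither passed (limma adjusted p = 0.0932 and 0.0749).

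**Figure D4:**
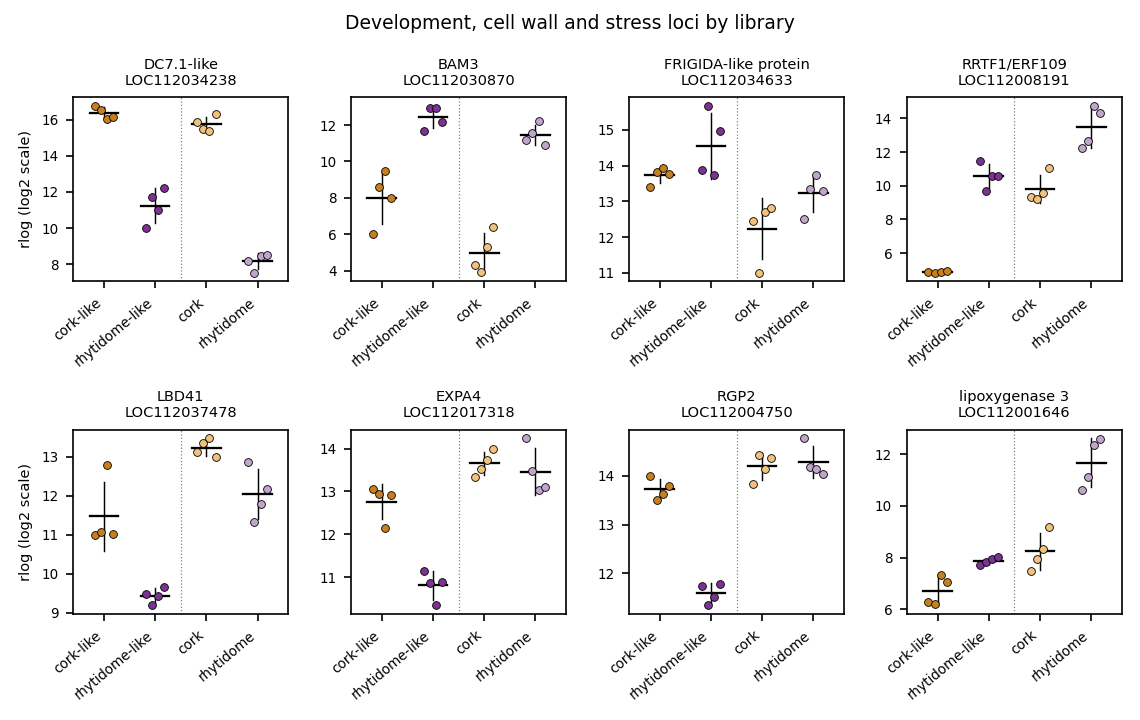
The rlog (log2 scale) of each library is shown for 8 loci of development, the cell wall and stress. Hybrid libraries stand left of the dotted line and parent libraries right of it, points are libraries (4 per bark), and bars give the mean and the SD. DC7.1-like, BAM3 and the FRIGIDA-like locus are higher in hybrids on average and the others lower, and RRTF1/ERF109 shows the 4 cork-like libraries under all others, at a mean of 4.89.

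Lipid genes outside suberin did not move as a block. Over all loci tested 12.6% were DEGs, over all named loci 26.7%, and over those outside the study's table and RT-qPCR genes 21.5%. The shares of these small lists are to be read against these. Storage lipid synthesis gave 5 DEGs among 8 loci (62.5%), 4 higher, among them FAD2 and GPAT9, and 1 lower, a phospholipid:diacylglycerol acyltransferase (LOC111994356, -2.11). The other higher loci, LOC112003190 and LOC112033971, were higher only on average. Rhytidome-like minus rhytidome was 6.07 and 3.89 there, and cork-like minus cork -0.78 and -1.42. Membrane lipid synthesis gave 8 among 22 (36.4%), 4 in each direction, and phospholipid signalling 7 among 15 (46.7%), 4 higher and 3 lower. Breakdown of storage lipids and fatty acids gave 6 among 12 (50%), 2 higher and 4 lower. Fatty acid elongation and wax synthesis gave 2 among 18 (11.1%), both lower and both lipid transfer proteins, near the 12.6% of all loci. Fatty acid synthesis gave 2 among 8 (25%), 1 in each direction, a share between the 21.5% and the 26.7%. The lipid lists share loci. With the cork-like tree as 1 sample, storage lipid synthesis kept 2 DEGs, FAD2 and GPAT9. Both also stand in the list of membrane lipid synthesis, which kept 3, and phospholipid signalling kept 2. Breakdown, elongation and wax, and fatty acid synthesis then had none by limma or treat, with 6, 7 and 4 loci at an unadjusted p under 0.05. Phosphoinositide 4-kinase gamma 7 (LOC112020819), of the signalling list, had 13.89, 14.05, 13.88 and 14.03 in cork-like and 15.04, 15.23, 15.08 and 15.79 in rhytidome-like bark, against 12.77, 12.81, 12.61 and 12.87 in cork and 13.35, 14.00, 13.98 and 13.42 in rhytidome. It was higher by 1.4 (SE 0.13, limma adjusted p = 1.31e-06), with overlap only between cork-like and rhytidome libraries, and its second locus (LOC111996833) was higher by 1.16 (limma adjusted p = 1.85e-05).

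Oxylipins are signals made from oxidized fatty acids, of which jasmonate is the best known. Over all named loci 26.7% were DEGs, over those outside the study's table and RT-qPCR genes 21.5%, and over all loci tested 12.6%. The oxylipin list gave 6 DEGs among 20 loci (30%), 2 higher and 4 lower, near the first of these shares. Its median was -0.92, and it held 1 DEG with the cork-like tree as 1 sample. A list of jasmonate genes, which overlaps with it, gave 2 among 10, both lower and both lipoxygenase 3 loci, and 1 with the cork-like tree as 1 sample. Lipoxygenase 3 (LOC112001646), which starts the jasmonate pathway in wounded tissue, had 6.29, 6.18, 7.32 and 7.05 in cork-like and 7.72, 7.81, 7.94 and 8.03 in rhytidome-like bark, against 7.49, 7.96, 8.34 and 9.18 in cork and 10.62, 11.10, 12.37 and 12.59 in rhytidome. Both hybrids lay under their own parent in every library, with the larger gap in the rhytidome type, and the difference was -2.66 (SE 0.30, limma adjusted p = 1.17e-05). The 2 higher loci were alpha dioxygenases (LOC112027093, 1.53, and LOC112038937, 1.41). Neither kept its call with the cork-like tree as 1 sample (limma adjusted p = 0.0272 and 0.0178).

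Over all named loci 26.7% were DEGs, over those outside the study's table and RT-qPCR genes 21.5%, and over all loci tested 12.6%. UDP-glycosyltransferases by name gave 3 DEGs among 11 loci (27.3%), 2 higher and 1 lower, and 2 with the cork-like tree as 1 sample. The most highly expressed (LOC112005619), matched to a granule-bound starch synthase, had 11.45, 13.52, 14.21 and 12.51 in cork-like and 16.72, 17.86, 17.94 and 18.08 in rhytidome-like bark, against 11.31, 10.80, 10.37 and 10.54 in cork and 15.32, 16.40, 16.30 and 14.72 in rhytidome. The level followed the type of bark first, and within each type the hybrid was higher, by 2.07 (SE 0.36, limma adjusted p = 0.000445). Cellulose synthase-like D5 (LOC112024806), which acts in walls of dividing cells, gave -1.55 (limma adjusted p = 7.80e-05). Among defence proteins 2 of 8 loci were DEGs (25%), 1 in each direction. Among F-box and ubiquitin ligase genes 1 of 5 was (20%), lower in hybrids. The defence share lay between the 21.5% and the 26.7%, and the F-box share between the 12.6% and the 21.5%. With the cork-like tree as 1 sample no locus of either list was a DEG by limma or treat, with 4 and 2 loci at an unadjusted p under 0.05. Of 15 transposon-derived loci none was a DEG by limma or by its treat test, with 6 at an unadjusted p under 0.05, and of 9 pentatricopeptide repeat loci none was, with 2 at such a p. Lists of heat shock, photosynthesis, cell cycle, histone, chromatin and other genes had fewer than 5 named members tested and are not described.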

How the data were processed

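The 16 libraries were grouped by their sample titles. Per the submitters' processing notes and the study's methods, the authors used Trimmomatic 0.40 for trimming, GSNAP for mapping to the cork oak genome, and Cufflinks 2.2.1, HTSeq 0.11.1 and DESeq2 1.38.3 downstream. The deposited table gives the regularized log2 (rlog) of the counts that the authors computed for 47292 loci, from -2.29 to 20.05. Counts and their depth per library were not used here, so no counting error is given, and whether strand was used in counting is not given in the sources.

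These values were fitted in limma 3.58.1 (R 4.3.3), with 1 mean for each bark and a variance that follows the mean level, over 25617 loci that averaged an rlog of 1 or more. DEGs had a Benjamini-Hochberg adjusted p under 0.01 and an absolute difference over 1. The unit was known to be rlog when the test was chosen. The test was tried on simulated data. P-values measure the spread between trees, and for cork-like bark between sides of 1 tree.

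Names came from the study's tables (885 loci, of which 543 were tested). Named genes are DEGs with a mean rlog of at least 5 and no overlap between hybrid and parent libraries (up to 15 each way, kept with cork-like averaged), up to 3 DEGs each way in each gene list, kept likewise, and DEGs of the study's tables. Genes named outside this rule are given with the counts of their list or were chosen after their values were seen. Of 34 gene lists and 8 lists of lipid pathways added later, 17 had at least 5 named loci tested. The comparison, members and lists were chosen with earlier results of these data known. Alternatives changed the test, filter, variance, scaling, parental midpoint, design and libraries. The linear scale and the counts of suberin loci under the alternatives were added after seeing the data. Figures were drawn in Python 3.11.15 with numpy 2.4.6, pandas 2.3.3 and matplotlib 3.10.9.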

Additional observations from a re-analysis of the deposited data

Results flagged for a closer look

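Among the 59 named loci, 236 groups of 4 libraries were examined for a library far from the other 3, and 12 were found. Chance gives about 1 in 20 where groups are independent, and 12 of 236 lies near that share. Several flags fell on rhytidome-like 21 and on the east side of the cork-like tree. The groups share libraries, so flags can fall together, and whether these differ from chance was not tested. Rhytidome-like 21 was low at the starch synthase match LOC112005619 (16.72, others 17.86 to 18.08), ABCG2 (3.24, others 5.07 to 5.08), GELP38 LOC111998717 (7.16, others 9.43 to 9.87), GELP51 LOC112038078 (10.67, others 12.27 to 12.34) and ASFT/FHT LOC112001733 (10.01, others 11.27 to 11.49). The east side of the cork-like tree was low at PER72 (9.05, others 9.39 to 9.42) and EXPA4 (12.16, others 12.91 to 13.05) and high at LBD41 (12.79, others 11.01 to 11.08). Cork 91 was low at MYB4 LOC111990470 (7.79, others 9.27 to 9.29), cork 87 at ABCG2 (9.90, others 10.31 to 10.38) and cork 90 at the NAC locus (9.39, others 9.77 to 9.85). Rhytidome 33 was high at ASFT/FHT LOC112001733 (14.84, others 14.10 to 14.22).

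At 23 named loci the difference of hybrid from parent itself differed between the types of bark, by the limma test of cork-like minus cork, minus rhytidome-like minus rhytidome. Its value was positive, with rhytidome-like bark falling further below its parent, at CYP94B3 (2.54), MYB93 LOC112033310 (2.12), xyloglucan endotransglucosylase/hydrolase 28 (1.82), LTP1.4/LTP2 (2.96), MYB84 LOC112031843 (1.96), the aspartyl protease LOC111989591 (1.48), XTH30 (2.53), FAR4 LOC112008996 (3.75), MYB102 LOC111989495 (2.21) and LOC112004686 (1.27), GELP38 LOC112036148 (1.71), RGP2 (2.23), GELP51 LOC112038093 (2.37), ASFT/FHT LOC112001733 (3.13) and LOC112007140 (1.86), EXPA4 (1.77), lipoxygenase 3 LOC112001646 (2.26) and MYB9 LOC112034724 (3.28). It was negative at MYB4 LOC112023509 (-5.05), DC7.1-like (-2.45), SNF1-RPK (-1.17) and phosphoinositide 4-kinase gamma 7 LOC111996833 (-1.11), where rhytidome-like bark exceeded rhytidome, and at PER72 (-2.92), where cork-like bark was below cork. Limma adjusted p ran from 1.7e-05 for RGP2 to 0.0098 for GELP38. After the cork-like libraries were averaged to 1, RGP2 (0.00289) and ASFT/FHT LOC112001733 (0.00603) kept a limma adjusted p under 0.01, and the other 21 did not.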

How the results depend on the processing

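None of the 59 named loci changed direction under the alternatives run. Counts of DEGs (3229, with 1253 higher and 1976 lower) moved most with the size of difference tested against and with the treatment of the cork-like tree and of bark. With a test against a difference of 1 (treat) there were 385 (125 higher, 260 lower), with 249 outside both parents, 107 without overlap, 8 suberin and lignin loci, 1193 loci that differed between the types of bark, 664 between cork-like bark and cork and 951 between rhytidome-like bark and rhytidome. With the cork-like libraries averaged to 1 there were 1224 (457 higher, 767 lower), with 684, 12 suberin loci, 820 and 269 for the same quantities, and with the south side alone 1422 (562 higher, 860 lower), with 830, 14, 934 and 426. Bark type and hybrid state as additive terms gave 2117 DEGs, 739 higher. With no term for bark, the spread between barks entered the error, and 478 remained (173 higher, 305 lower), all 478 outside both parents, with 1 suberin locus. On the linear scale 13 suberin loci kept a difference over 1.

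Leaving out 1 library at a time gave 2765 to 3410 DEGs (1048 to 1328 higher, 1717 to 2082 lower), 1417 to 1776 outside both parents, 326 to 429 without overlap, 20 to 29 suberin loci, 3748 to 4822 loci that differed between types, 2466 to 3878 for cork-like bark against cork and 3840 to 4659 for rhytidome-like bark against rhytidome. Of the 59 named loci, 11 stayed DEGs with treat, 37 with the cork-like libraries averaged, 51 after quantile normalization, 50 after median centring, 55 against parents weighted by expected alleles, 43 on the linear scale and 10 with no term for bark. No paired analysis was possible because the libraries of different barks come from different trees, and the numbers in the labels name trees or sides of 1 tree, not pairs. Depth could not be weighed, since the table holds no counts.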

Other observations

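At some DEGs higher in hybrids, cork stood apart from the other 3 barks. These were chosen after their values were seen. Carbonic anhydrase 2 (LOC112019297), an enzyme of carbon dioxide hydration, had 11.53, 11.83, 11.68 and 11.58 in cork-like and 14.28, 13.85, 13.05 and 14.27 in rhytidome-like bark, against 7.24, 7.96, 7.19 and 7.35 in cork and 14.52, 12.69, 13.95 and 15.05 in rhytidome. Both hybrids lay within the parental range, and the difference of 2.01 (limma adjusted p = 5.49e-05) went with low levels in cork. Temperature-induced lipocalin (LOC112019869), a membrane protein of heat and cold tolerance, had 12.09, 12.85, 12.12 and 11.92 in cork-like and 12.90, 13.29, 13.05 and 13.44 in rhytidome-like bark, against 9.85, 7.999, 9.08 and 9.76 in cork and 11.73, 12.42, 13.28 and 12.83 in rhytidome. Cork-like and rhytidome-like libraries overlapped with rhytidome, and the difference was 1.84 (limma adjusted p = 8.86e-05).

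At others, also chosen after their values were seen, hybrids stood above or below the parent of their own bark type in every library. An AUX/IAA repressor of auxin responses (LOC112037337) had 8.90, 10.93, 10.25 and 9.70 in cork-like and 13.40, 13.52, 13.56 and 14.02 in rhytidome-like bark, against 6.99, 6.97, 7.03 and 7.53 in cork and 12.12, 12.83, 12.71 and 11.58 in rhytidome, a difference of 2.06 (limma adjusted p = 1.92e-05). Beta-xylosidase 2 (LOC112006849), a wall enzyme, had 10.85, 10.83, 10.90 and 10.72 in cork-like and 7.68, 7.24, 7.38 and 6.49 in rhytidome-like bark, against 12.35, 12.49, 12.43 and 12.57 in cork and 9.61, 9.46, 8.83 and 9.26 in rhytidome, a difference of -1.87 (limma adjusted p = 5.35e-07). The spindle protein TPX2 (targeting protein for XKLP2, LOC112001649), which acts in dividing cells, had 8.09, 7.95, 8.50 and 8.25 in cork-like and 7.20, 6.98, 7.002 and 6.23 in rhytidome-like bark, against 10.23, 9.99, 10.38 and 9.03 in cork and 9.43, 8.67, 8.03 and 8.36 in rhytidome. Cork-like libraries overlapped with rhytidome at TPX2, rhytidome-like libraries were the lowest, and the difference was -1.74 (limma adjusted p = 4.38e-05).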
